A study of Mus musculus with 8 samples.

Results

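Collagen hydroxylases and folding chaperones are the endoplasmic reticulum proteins that modify and fold procollagen chains. The members described here are 10 of the 18824 genes in the deposited count table, taken by gene symbol, and all 10 passed the filter on low counts. They are the prolyl 4-hydroxylase subunits P4ha1, P4ha2, P4ha3 and P4hb, the prolyl 3-hydroxylase P3h1 with its partner Crtap, the lysyl hydroxylases Plod1, Plod2 and Plod3, and the collagen chaperone Serpinh1 (HSP47).

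The libraries were made from lungs of mice treated with bleomycin, a DNA-breaking drug used to produce lung fibrosis in rodents. There were 4 libraries from Slc15a3-/- mice (KO_BLM) and 4 from wild-type mice (WT_BLM). SLC15A3 carries histidine and short peptides across membranes of endosomes and lysosomes. All mice were 8 weeks old, were given bleomycin into the trachea once at 2 mg/kg, in a volume of 50 µl, and were killed on day 21. Saline-treated lungs were not analysed here, so each difference is one between genotypes after bleomycin. The labels give a knockout of the gene in the animal, with no cell type restriction stated, and do not say that each library came from a separate mouse. The p-values therefore measure the spread between these libraries, which may be technical.

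Prolyl 4-hydroxylase is a tetramer of catalytic alpha subunits, encoded by P4ha1, P4ha2 or P4ha3, and beta subunits, which are the protein disulfide isomerase P4HB. It forms the 4-hydroxyproline that makes the collagen triple helix stable at body temperature. Lysyl hydroxylases form the hydroxylysine that carries sugars and takes part in cross-links between collagen molecules. P3H1, CRTAP and cyclophilin B (Ppib) form a complex that hydroxylates single prolines at the 3 position and assists folding, and HSP47 binds the folded helix on its way out of the endoplasmic reticulum.

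In GENCODE M21 (GRCm38), P4ha1 lies at chr10:59323296-59373304 and P4ha3 at chr7:100285520-100319699, both on the plus strand. The deposited annotation listed 7 members (P4ha1, P4ha2, P4ha3, Plod1, Plod2, Plod3 and P3h1) under L-ascorbic acid binding, a term held by 19 genes of the table, and the same 7 under iron ion binding, held by 136. Both are cofactors of 2-oxoglutarate-dependent hydroxylases. The promoters of the alpha subunit genes are shown because these 3 isoforms of a single subunit differed most from each other in the comparison below. Each sequence holds 250 bases before and 50 bases after the RefSeq start (GRCm38.p6, plus strand), at chr10:59323046-59323345 for P4ha1, chr11:54100674-54100973 for P4ha2 and chr7:100285270-100285569 for P4ha3. Capitals mark matches on either strand to the motif ACGTG, to the related motif GCGTG (both forms of the hypoxia response core), to the heat shock motif GAANNTTC, to the promoter box CCAAT, to the motif TATAAA, known as the TATA box, or to the ER stress element. No match overlapped another.
P4ha1: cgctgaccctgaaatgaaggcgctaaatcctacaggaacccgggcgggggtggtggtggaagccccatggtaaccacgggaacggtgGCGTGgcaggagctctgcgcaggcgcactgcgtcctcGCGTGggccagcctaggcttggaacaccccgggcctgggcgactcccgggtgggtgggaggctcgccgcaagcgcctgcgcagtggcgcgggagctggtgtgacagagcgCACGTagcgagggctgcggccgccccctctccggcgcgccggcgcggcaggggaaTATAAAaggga
P4ha2: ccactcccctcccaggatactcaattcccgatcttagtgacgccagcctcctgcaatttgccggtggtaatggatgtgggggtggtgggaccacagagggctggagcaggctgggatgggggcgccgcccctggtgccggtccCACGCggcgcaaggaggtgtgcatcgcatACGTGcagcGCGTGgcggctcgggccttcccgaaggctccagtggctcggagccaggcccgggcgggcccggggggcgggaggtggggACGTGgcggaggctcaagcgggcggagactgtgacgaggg
P4ha3: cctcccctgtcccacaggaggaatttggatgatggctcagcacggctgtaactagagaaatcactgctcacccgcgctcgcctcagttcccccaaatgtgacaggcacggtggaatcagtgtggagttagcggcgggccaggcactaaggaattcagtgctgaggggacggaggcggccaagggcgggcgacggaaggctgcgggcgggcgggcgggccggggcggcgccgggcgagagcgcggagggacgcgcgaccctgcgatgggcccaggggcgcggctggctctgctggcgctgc

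The P4ha1 promoter held 1 match to ACGTG, 2 to GCGTG and 1 to TATAAA, and that of P4ha2 held 2 to ACGTG and 2 to GCGTG. None of these motifs was found in the P4ha3 window, which says only that those letters are not in it. Over all 32851 promoters of that length, 19.6% held ACGTG, 32.4% GCGTG, 7.86% GAANNTTC, 37.4% the CCAAT box, 13.6% the TATA box and 0.119% the ER stress element. Either hypoxia core was present in 8 of the 9 members with a promoter in the table, against 43.8% of all promoters. Of the same 9 members, 3 held the CCAAT box, 3 the TATA box, 1 GAANNTTC and 0 the ER stress element. Members are counted by gene here and the background by promoter, and P3h1 has more than 1 promoter. The member promoters shown had a GC content of 70.3% (P4ha1), 70.3% (P4ha2) and 69.3% (P4ha3), against a median of 52.7% over all promoters. The part of GC content in the motif counts was not tested.

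Total counts were 17627999 to 18471445 in KO_BLM and 18878835 to 20180831 in WT_BLM. Slc15a3 had 46 counts over the 4 KO_BLM libraries and 3874 over the 4 WT_BLM libraries, as the labels state. Of 14746 genes tested between the groups, 41.5% were called at an adjusted p under 0.05, 20.7% higher and 20.8% lower in KO_BLM (edgeR quasi-likelihood test). With library totals alone as the scaling, 62.7% of calls were higher, against 50% with TMM factors. Of the 10 members, 1 rose, 5 fell and 4 were not called, and the median log2 fold change of the members was −0.38, against 0.0025 over all genes tested. The groups did not overlap for 6 members, and did not overlap for 40.9% of all genes tested (20.3% higher, 20.7% lower). In whole lung, fewer cells of a type and less RNA per cell cannot be told apart.

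**Figure D1:**
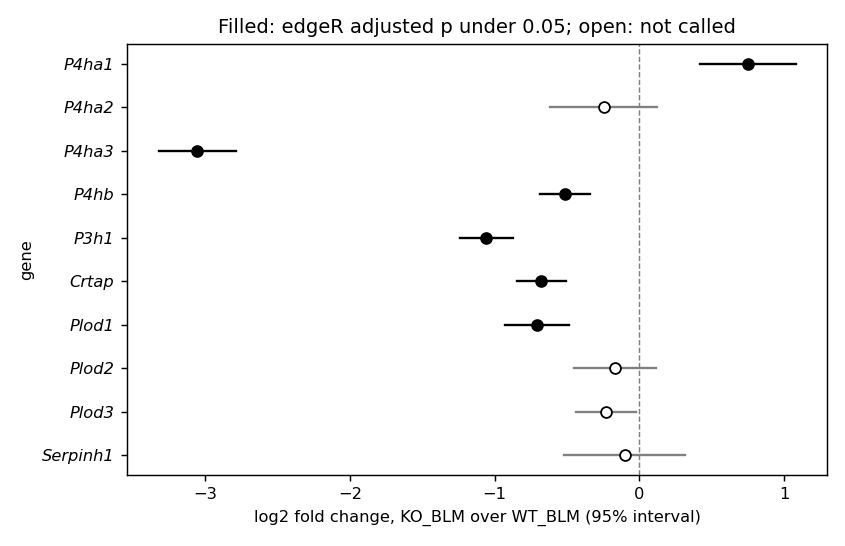
Log2 fold change of each member, KO_BLM over WT_BLM, with its 95% interval from the edgeR fit (x axis), filled where the adjusted p was under 0.05. P4ha3 lies furthest to the left at −3.05 and P4ha1 is the only member called to the right of 0, at 0.75.

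The alpha subunits went in different directions. P4ha3 fell 8.30-fold in KO_BLM, P4ha1 rose 1.68-fold and P4ha2 was not called. P4ha1, the widely expressed alpha subunit, had 124, 127, 91.4 and 144 CPM in KO_BLM, against 68.7, 87.5, 71.1 and 62.0 CPM in WT_BLM. CPM are counts scaled by the TMM-adjusted size of each library. The lowest KO_BLM library, replicate 3, was still above the highest WT_BLM library, so the groups did not overlap. The log2 fold change was 0.75 (SE 0.15, adjusted p = 0.00362 by edgeR).

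P4ha3 encodes an alpha subunit that is scarce in most tissues. It had 4.19, 4.35, 4.54 and 4.95 CPM in KO_BLM, against 42.6, 31.8, 37.8 and 37.8 CPM in WT_BLM, from 336 counts in KO_BLM and 2815 in WT_BLM. Every KO_BLM library was far below every WT_BLM library, and the spread within each group was small beside the gap. The log2 fold change was −3.05 (SE 0.12, adjusted p = 9.36e-07 by edgeR), and 56 of the 14746 tested genes had a lower fold change. P4ha2, the alpha subunit known from cartilage and bone cells, had 66.2, 63.6, 55.2 and 69.8 CPM in KO_BLM, against 77.3, 60.7, 61.1 and 103 CPM in WT_BLM. The groups overlapped, with WT_BLM replicate 4 highest. Its log2 fold change was −0.25 (95% interval −0.62 to 0.12, edgeR adjusted p = 0.252).

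Because a ratio of isoforms within a library does not depend on scaling between libraries, isoforms were also set against each other in each library. The P4ha3/P4ha1 ratio of FPKM (counts scaled by gene length and library total, as deposited) was 0.0561, 0.0569, 0.0823 and 0.0570 in KO_BLM, against 1.03, 0.603, 0.881 and 1.01 in WT_BLM. Per length the pair was near parity in WT_BLM, and in KO_BLM P4ha3 was a small fraction of P4ha1. The log2 difference was −3.79, with an exact two-sided permutation p of 0.0286, the smallest that 4 against 4 allows, and 0.0429 after adjustment over the 6 isoform pairs. Each of these genes alone already separated the groups, in opposite directions, so their ratio had to separate them too. This p therefore adds nothing to the results for each gene. The share of other gene pairs whose ratio separates the groups is not given here. P4ha3/P4ha2 differed by −2.83 and P4ha2/P4ha1 by −0.96 on the log2 scale, each at the same exact permutation p of 0.0286 and adjusted p of 0.0429. The P4ha2/P4ha1 ratio of FPKM was 0.849 to 1.06 in KO_BLM, against 1.22 to 2.92 in WT_BLM. Per length P4ha2 thus exceeded P4ha1 in every WT_BLM library. By counts P4ha2 was below P4ha1 in WT_BLM replicate 2 (1224 against 1765) and replicate 3 (1140 against 1328).

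As shares of the summed P4ha FPKM, P4ha1 held 50.3% ± 2.55 in KO_BLM and 27.6% ± 6.49 in WT_BLM, and P4ha3 held 3.15% ± 0.472 in KO_BLM and 23.4% ± 2.87 in WT_BLM (SD, n = 4 each). Neither share overlapped between groups, and for both the exact permutation p was 0.0286, or 0.0571 after adjustment over the 6 shares. P4ha2 held 46.6% ± 2.16 in KO_BLM and 49.0% ± 7.30 in WT_BLM, with overlapping groups (exact permutation p = 0.743). The summed FPKM of the 3 alpha subunit genes was 60.1, 60.7, 49.4 and 71.1 in KO_BLM, against 64.0, 59.9, 57.9 and 69.6 in WT_BLM. The sums overlapped, with KO_BLM holding both the lowest and the highest library on this scale. FPKM values do not use the TMM factors, which were 1.07 for KO_BLM replicate 4 and 0.936 for WT_BLM replicate 4. Which of these libraries is highest therefore depends on the scaling.

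**Figure D2:**
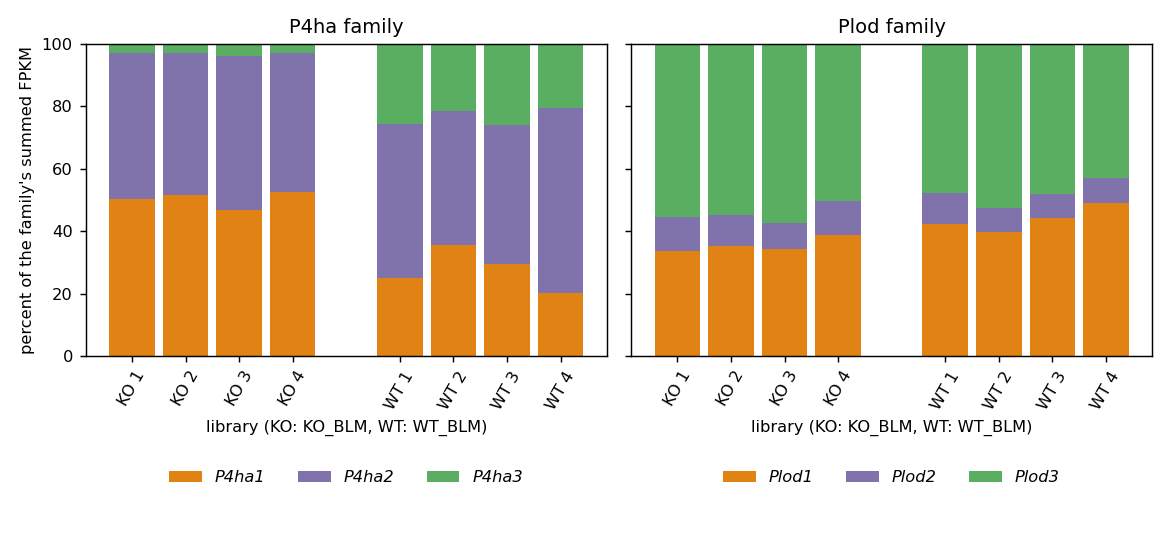
Percent of the summed FPKM of the P4ha genes (left) and Plod genes (right) given by each isoform (y axis) in each library (x axis), KO_BLM left of WT_BLM. P4ha3 makes up 2.81 to 3.85% in KO_BLM libraries and 20.5 to 26.0% in WT_BLM libraries.

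P4hb, the beta subunit and a general disulfide isomerase, had 631, 627, 659 and 694 CPM in KO_BLM, against 963, 899, 907 and 959 CPM in WT_BLM. The groups were well apart, and each varied by under 5% of its mean (coefficients of variation 4.77% in KO_BLM and 3.61% in WT_BLM). P4hb fell 1.43-fold (log2 fold change −0.51 with an SE of 0.08, adjusted p = 0.00105 by edgeR). The FPKM ratio of P4hb to the summed alpha subunits was 3.67, 3.67, 4.84 and 3.63 in KO_BLM, against 5.04, 5.24, 5.41 and 4.50 in WT_BLM, so KO_BLM replicate 3 lay within the WT_BLM range.

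The 3-hydroxylation complex members P3h1 and Crtap both fell, P3h1 by more. P3h1, the catalytic subunit, had 35.3, 35.5, 37.6 and 34.8 CPM in KO_BLM, against 79.6, 79.7, 72.6 and 66.0 CPM in WT_BLM. All KO_BLM libraries lay in a narrow band below the lowest WT_BLM library. P3h1 fell 2.08-fold (log2 fold change −1.06 with an SE of 0.08, adjusted p = 2.68e-05 by edgeR). Crtap, its non-catalytic partner, had 61.8, 64.7, 65.8 and 58.4 CPM in KO_BLM, against 104, 105, 98.7 and 93.2 CPM in WT_BLM. It did not overlap between groups either and fell 1.60-fold (log2 fold change −0.68 with an SE of 0.08, adjusted p = 0.000184 by edgeR). Annotation places the noncoding gene 4930520O04Rik on the opposite strand over 2096 bases of Crtap, and whether the counting used strand is not stated.

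The P3h1/Crtap ratio of FPKM was 0.291, 0.279, 0.291 and 0.304 in KO_BLM, against 0.389, 0.387, 0.375 and 0.361 in WT_BLM. No KO_BLM ratio reached the lowest WT_BLM ratio. Ppib, the isomerase of the complex, had 225 ± 11.5 CPM in KO_BLM and 274 ± 14.0 CPM in WT_BLM (SD, n = 4 each) and fell 1.22-fold (edgeR adjusted p = 0.0153). That call was lost with library totals alone (adjusted p = 0.0517) and without KO_BLM replicate 2 (adjusted p = 0.0554). The FPKM ratio of Ppib to P3h1 was 22.0 ± 0.424 in KO_BLM and 12.99 ± 1.81 in WT_BLM.

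Of the lysyl hydroxylases only Plod1 was called. Plod1, which hydroxylates lysines of the helical region, had 66.6, 76.0, 72.6 and 88.6 CPM in KO_BLM, against 124, 113, 129 and 131 CPM in WT_BLM. Even KO_BLM replicate 4, the highest of its group, was below all WT_BLM libraries. Plod1 fell 1.64-fold (log2 fold change −0.71 with an SE of 0.10, adjusted p = 0.000628 by edgeR). Plod2, whose enzyme hydroxylates telopeptide lysines, had 63.2, 62.7, 50.8 and 70.5 CPM in KO_BLM, against 85.2, 65.4, 65.4 and 61.8 CPM in WT_BLM. The groups overlapped, and the highest value was that of WT_BLM replicate 1. The log2 fold change was −0.17 (95% interval −0.45 to 0.12, edgeR adjusted p = 0.313).

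Plod3, the isoform that also transfers sugars to hydroxylysine, had 111, 119, 122 and 116 CPM in KO_BLM, against 142, 151, 142 and 115 CPM in WT_BLM. WT_BLM replicate 4 lay within the KO_BLM range and the other WT_BLM libraries above it. The log2 fold change was −0.23 (95% interval −0.44 to −0.02, edgeR adjusted p = 0.0687). The call was made with DESeq2 (adjusted p = 0.0406), with limma-voom (adjusted p = 0.00726) and without WT_BLM replicate 4 (adjusted p = 0.00846). Plod3 shares 1003 bases with Znhit1 on the opposite strand, a gene at 43.9 CPM in KO_BLM and 40.7 CPM in WT_BLM.

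Within libraries the Plod1/Plod2 ratio of FPKM was 3.06, 3.52, 4.15 and 3.65 in KO_BLM, against 4.23, 5.02, 5.75 and 6.14 in WT_BLM. The ranges came close but did not overlap, and the log2 difference was −0.55 (exact permutation p = 0.0286, adjusted p = 0.0429). Plod1/Plod3 differed by −0.49 with overlapping groups (exact permutation p = 0.0571, adjusted p = 0.0686), and Plod3/Plod2 by −0.06 (exact permutation p = 0.771, adjusted p = 0.771). Plod1 made up 35.5% ± 2.35 of the summed Plod FPKM in KO_BLM and 43.7% ± 4.003 in WT_BLM (SD, n = 4 each, exact permutation p = 0.0286, adjusted p = 0.0571). The summed Plod FPKM was 61.2, 67.4, 67.4 and 74.7 in KO_BLM, against 86.7, 87.5, 89.1 and 76.5 in WT_BLM, which did not overlap, unlike the P4ha sum.

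Serpinh1, the collagen-specific chaperone, had 609, 704, 515 and 918 CPM in KO_BLM, against 758, 867, 767 and 551 CPM in WT_BLM. The groups overlapped widely, and KO_BLM held both the lowest and the highest library. The log2 fold change was −0.10 (95% interval −0.52 to 0.32, edgeR adjusted p = 0.693), and without KO_BLM replicate 3 it was 0.02. This interval leaves room for a change in either direction.

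Per length, Serpinh1 and P4hb were the most abundant members, at 286 ± 78.1 and 235 ± 17.4 FPKM in KO_BLM, and at 289 ± 59.2 and 316 ± 4.39 FPKM in WT_BLM (SD, n = 4 each). Their order does not exceed the spread of Serpinh1. In KO_BLM there followed Crtap at 37.7 ± 1.82, Plod3 at 36.8 ± 2.00, P4ha1 at 30.5 ± 5.84, P4ha2 at 28.0 ± 2.97 and Plod1 at 24.1 ± 3.56 FPKM, and the ranges of each neighbouring pair over the 4 libraries overlapped. P3h1 at 10.97 ± 0.486, Plod2 at 6.74 ± 0.965 and P4ha3 at 1.88 ± 0.188 FPKM closed the order in KO_BLM, each clear of the next. In WT_BLM Crtap at 56.8 ± 4.33 FPKM was clear of Plod3 at 40.8 ± 5.62, while Plod3, Plod1 (37.0 ± 1.94) and P4ha2 (31.1 ± 7.28) were not clear of each other. P3h1 at 21.5 ± 2.31, P4ha1 at 17.1 ± 3.03 and P4ha3 at 14.7 ± 1.53 FPKM came next in WT_BLM, with overlapping ranges between neighbours, and Plod2 was lowest at 7.13 ± 1.07 FPKM. P4ha1 was thus above P3h1 and Plod1 in the KO_BLM means and below both in the WT_BLM means. Per length, P4ha3 was below Plod2 in KO_BLM and above it in WT_BLM. This order rests on the length behind the FPKM, 9445 bases for Plod2 and 2478 for P4ha3. By CPM, not scaled by length, Plod2 was above P4ha3 in both groups. The means were 61.8 and 4.51 CPM in KO_BLM, and 69.4 and 37.5 CPM in WT_BLM.

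**Figure D3:**
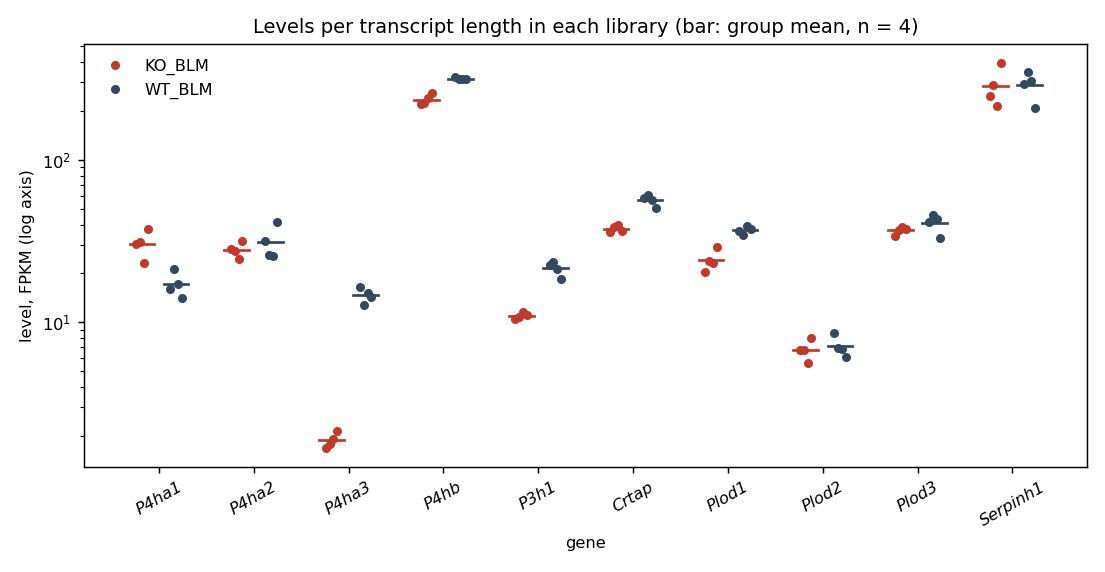
FPKM of each member (log y axis) in each library, KO_BLM left of WT_BLM for each gene, with bars at the group means (n = 4). P4ha3 shows the widest gap, at 1.88 FPKM in KO_BLM and 14.7 FPKM in WT_BLM.

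Among the chains these enzymes modify, 8 of the 11 fibrillar collagen chains fell, none rose and 3 were not called, against 20.8% of all tested genes lower, with a median log2 fold change of −2.14, against −0.38 for the members. Col5a1, a chain of type V collagen, fell 5.20-fold and Col1a2, a chain of type I collagen, fell 4.41-fold. Set against Col1a1, the main substrate transcript, 9 members were higher and only P4ha3 lower in KO_BLM, and the groups did not overlap for any of the 10. For each 1000 FPKM of Col1a1, P4ha1 had 413, 421, 315 and 435 FPKM in KO_BLM, against 38.3, 57.7, 37.2 and 41.1 FPKM in WT_BLM, a 9.17-fold higher ratio. Serpinh1 had 3367, 3874, 2946 and 4597 FPKM in KO_BLM on the same scale, against 703, 948, 665 and 605 FPKM in WT_BLM, although its own level was not called. P4ha3 had 23.2, 23.9, 26.0 and 24.8 FPKM in KO_BLM on that scale, against 39.5, 34.8, 32.8 and 41.5 FPKM in WT_BLM. These ratios are descriptions without a test, and since Col1a1 fell 5.51-fold, any gene that fell less has a higher ratio. The share of all tested genes whose ratio to Col1a1 does not overlap between groups is not given here. The lack of overlap in all 10 can therefore not be read as particular to the members.

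**Figure D4:**
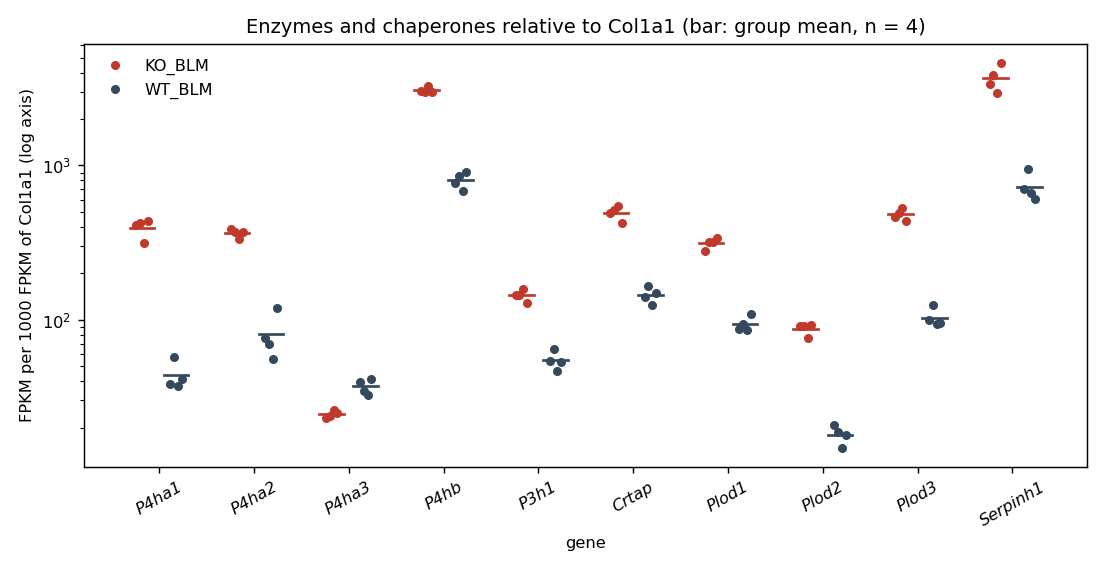
FPKM of each member for each 1000 FPKM of Col1a1 (log y axis) in each library, KO_BLM left of WT_BLM, with bars at the group means (n = 4). KO_BLM libraries lie above WT_BLM libraries for every member except P4ha3, whose mean is 24.5 in KO_BLM and 37.1 in WT_BLM.

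Genes that work with the members along the collagen pathway were counted beside them. Of 8 prolyl 3-hydroxylase and peptidyl-prolyl isomerase partners, 5 fell and none rose (median log2 fold change −0.34, against 20.8% of all tested genes lower). With library totals alone, with limma and without WT_BLM replicate 4, 1 of them was higher. Fkbp10, an isomerase that acts on procollagen and aids telopeptide lysine hydroxylation, had 44.8 ± 4.79 CPM in KO_BLM and 149 ± 5.47 CPM in WT_BLM (SD, n = 4 each) and fell 3.33-fold (edgeR adjusted p = 2.67e-06). Fkbp7, Fkbp14 and P3h3 fell 1.51-, 1.56- and 1.32-fold. The collagen galactosyltransferases split. Colgalt1, the broadly expressed enzyme, had 173 ± 15.2 CPM in KO_BLM and 279 ± 27.8 CPM in WT_BLM and fell 1.61-fold, and Colgalt2 had 17.61 ± 3.97 CPM in KO_BLM and 6.59 ± 1.42 CPM in WT_BLM and rose 2.67-fold.

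Of 11 genes for procollagen export from the endoplasmic reticulum, 8 fell and none rose, against 20.8% of all tested genes lower. The count was 5 with library totals alone and without KO_BLM replicate 1, KO_BLM replicate 2 or WT_BLM replicate 3. Sec23a and Sec24d, coat proteins of export vesicles, fell 1.497- and 1.35-fold, and Kdelr3, a receptor that returns resident proteins, fell 2.30-fold. Of 8 tested genes for propeptide processing, 6 fell and 1 rose, against the same 20.8% lower and 20.7% higher. Bmp1, the C-propeptide protease, fell 1.78-fold, Adamts2, an N-propeptide protease, fell 2.13-fold, and Pcolce2, an enhancer of C-propeptide cleavage, rose 4.29-fold to 205 ± 48.0 CPM in KO_BLM, against 47.8 ± 5.28 CPM in WT_BLM.

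Of 15 general chaperones and disulfide isomerases of the endoplasmic reticulum, 4 rose, none fell and 11 were not called (median log2 fold change 0.45, against 20.7% of all tested genes higher). The count of higher genes was 8 without KO_BLM replicate 3, 7 with DESeq2 or library totals alone and 8 with limma-voom. Ero1b, an oxidase that recharges disulfide isomerases, rose 1.63-fold, Hsp90b1 (GRP94) 1.57-fold and the disulfide isomerase Pdia6 1.53-fold. Hspa5 (BiP) had 575, 597, 389 and 869 CPM in KO_BLM, against 434, 435, 380 and 412 CPM in WT_BLM, and its edgeR adjusted p of 0.0493 passed 0.05 in 6 of 17 other fits. KO_BLM replicate 3 lay inside the WT_BLM range for Hspa5 and replicate 4 was far above it.

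The same libraries were extreme for several members. KO_BLM replicate 3 was the lowest and KO_BLM replicate 4 the highest of their group for P4ha1, P4ha2, Plod2 and Serpinh1. The summed CPM of the 15 general chaperones had the same order, at 3789, 3873, 3064 and 5085 in KO_BLM, against 3198, 3328, 3048 and 2869 in WT_BLM. In WT_BLM the chaperone sum, P4ha1 and Serpinh1 were each highest in replicate 2 and lowest in replicate 4, whereas P4ha2 was highest in replicate 4. P3h1 and Crtap had the opposite extremes to Serpinh1 within KO_BLM, with replicate 3 highest and replicate 4 lowest. Within WT_BLM both had the same extremes as Serpinh1, with replicate 2 highest, just above replicate 1, and replicate 4 lowest. The part of the chaperone level in the spread of the members was not tested.

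**Figure D5:**
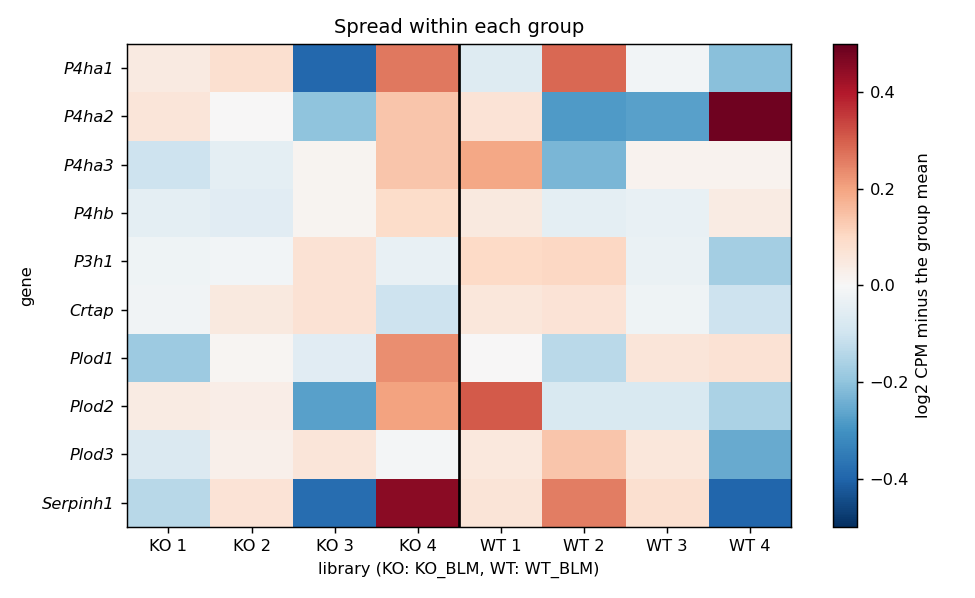
Log2 CPM of each member minus its group mean (colour scale) in each library, KO_BLM left of the black line and WT_BLM right of it. Serpinh1 and P4ha1 share their low and high libraries in both groups, and P3h1 and Crtap vary little.

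Across the 8 libraries the tested genes with a pattern most like a member were named by Pearson's r of log2 CPM, as a description over libraries that share the group difference. P4ha3 was most like Col1a2 (r = 0.999), Myo7a (r = 0.999) and Itga5 (r = 0.998). P4ha1 was most like Magt1 (r = 0.992), Rngtt (r = 0.991) and Lman2l (r = 0.986). For Serpinh1 they included Xbp1 (r = 0.951), a transcription factor of the unfolded protein response, and Hjurp (r = 0.940). Xbp1 had 315, 324, 265 and 397 CPM in KO_BLM, against 331, 379, 363 and 306 CPM in WT_BLM, with the same lowest and highest libraries as Serpinh1 in each group.

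Markers of the cells that make collagen differed between the groups as well. The summed level of 14 fibroblast and myofibroblast markers was 3174 to 3576 CPM in KO_BLM, against 6966 to 8039 CPM in WT_BLM. Most of that gap came from Col1a1 (means of 441 CPM in KO_BLM and 2427 CPM in WT_BLM) and Col1a2 (594 CPM in KO_BLM and 2618 CPM in WT_BLM). Over all tested genes 20.8% were called lower and 20.7% higher, the shares to set beside each marker count below. Of the 14 markers 9 fell, 4 rose and 1 was not called. The 4 that rose were Tcf21, a transcription factor of resident lung fibroblasts (3.22-fold, to 105 ± 19.8 CPM in KO_BLM, against 32.7 ± 8.06 CPM in WT_BLM), Npnt (1.71-fold), Pi16 (1.57-fold) and Dpt (1.20-fold), named after their values were seen. Without KO_BLM replicate 2 or KO_BLM replicate 4, 2 markers rose, and the calls of Pi16 and Dpt were lost. Cthrc1, a marker of collagen-producing fibroblasts, fell 7.80-fold, to 4.63 ± 0.726 CPM in KO_BLM, against 36.2 ± 4.23 CPM in WT_BLM (SD, n = 4 each). Pdgfrb fell 1.77-fold and Pdgfra was not called, at 329 ± 66.1 CPM in KO_BLM and 403 ± 89.5 CPM in WT_BLM, both chosen after their values were seen. Of 10 alveolar type 2 markers 9 rose, with Sftpa1 3.85-fold and Lamp3 3.52-fold higher. All 8 airway ciliated and club cell markers and 10 of 11 lymphocyte markers rose, with median log2 fold changes of 1.38 and 1.87. Of 12 macrophage and monocyte markers 8 fell and 2 rose (median −1.03). Of 9 endothelial markers 6 rose and 2 fell, with Vwf, the marker of smallest p, 1.86-fold lower. Without WT_BLM replicate 3 only 3 of the 9 rose. Summed levels of the airway markers were 11744 to 23300 CPM in KO_BLM, against 3049 to 9341 CPM in WT_BLM, and those of the lymphocyte markers 219 to 349 CPM in KO_BLM, against 33.3 to 104 CPM in WT_BLM. Macrophage and monocyte markers summed to 7158 to 9872 CPM in KO_BLM, against 5945 to 6878 CPM in WT_BLM, a higher sum although most of its genes fell. Most of that sum was Lyz2, at 7749 ± 1210 CPM in KO_BLM and 4550 ± 449 CPM in WT_BLM. The mean levels of the other markers together were lower in KO_BLM. Cartilage markers, relevant to P4ha2, summed to 0.992 to 2.87 CPM in KO_BLM and 3.97 to 4.95 CPM in WT_BLM. These sums rest on few counts, with 23 in KO_BLM and 56 in WT_BLM for Col2a1. Of the 8 listed, 3 passed the filter on low counts, and 1 of these, Hapln1, was called lower. With 1 library left out, 0 to 1 were called lower. The part of cell composition in the members' differences was not tested.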

How the data were processed

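Lung RNA was sequenced from stranded, polyadenylated-RNA libraries (TruSeq mRNA), per the labels' protocols. Raw counts by gene symbol, as whole numbers, were deposited together with FPKM values by the authors. Trimmomatic, HTSeq, Cufflinks, DESeq and mm10 are named in the submitters' processing notes. For the aligner, the annotation and the use of strand in counting, the entry is: not given in the sources used here. All deposited FPKM values (100% at a relative tolerance of 1e-06) equalled the count over the column total and 1 length per gene. Groups and replicate numbers came from the sample titles.

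Counts were tested with edgeR 4.0.16 in R 4.3.3 (TMM, filterByExpr with minimum count 10 and minimum total 15, robust quasi-likelihood F test, Benjamini-Hochberg adjustment over all 14746 tested genes at 0.05). Standard errors were the log2 fold change divided by the root of its F value. Isoform ratios and shares were compared by two-sided exact permutation tests over 70 arrangements (SciPy 1.17.1). Gene positions came from GENCODE M21 and promoters from RefSeq, both of the assembly of mm10. Alternatives were RLE factors, library totals, other low-count filters, DESeq2 1.42.0, limma 3.58.1 on voom or log2 FPKM values (pseudocount 1 or 0.1), the replicate number as a block, and each library left out. Data of 14755 genes were simulated, with 67 genes changed 1.5-fold, 67 changed 2-fold and 66 changed 4-fold. The edgeR step recovered 26.9%, 77.6% and 95.5% of them, and 6.34% of calls were false. Far fewer genes were changed there than the 41.5% called in the real libraries. The adjusted cutoff was therefore stricter in the simulation, and its recovery rates do not carry over. Libraries of a group differed by more than sampling noise (7.24 to 55.7 chi-square units for each degree of freedom).

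The members and lists were chosen with earlier results of these data known. All members were named whatever their result, with genes of smallest p from each list, the genes most like P4ha1, P4ha3 and Serpinh1, and Slc15a3. One gene that this rule names is not reported here. Ppib and Vegfa, like Pdgfra and Pdgfrb, were chosen after their values were seen.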

Additional observations from a re-analysis of the deposited data

Results flagged for a closer look

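Of 46 sets of 4 libraries examined for a library far from the others, 3 were flagged, and chance flags about 1 in 20. Plod2 in WT_BLM replicate 1 had 85.2 CPM, against 61.8 to 65.4 CPM in the other WT_BLM libraries. In the same library Plod2 made up 9.97% of the summed Plod FPKM, against 7.68 to 7.99% in the other WT_BLM libraries. The P4ha3/P4ha1 ratio of FPKM in KO_BLM replicate 3 was 0.0823, against 0.0561 to 0.0570 in the other KO_BLM libraries. That library had the lowest P4ha1 level of its group, and without it the log2 difference of the ratio was −3.93.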

How the results depend on the processing

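Of the members, P4ha1, P4ha3, P4hb, Plod1, Crtap and P3h1 kept their direction and their call in all 17 alternative fits, and P4ha2 and Plod2 were called in none. The log2 fold change ranged over these fits from 0.65 to 0.87 for P4ha1 and from −3.13 to −2.44 for P4ha3. Serpinh1 was called in none of the 17 and changed sign without KO_BLM replicate 3 (0.018, with a range of −0.28 to 0.018 over the libraries left out). Calls over all genes split into 63% and 62.8% higher with limma on log2 FPKM values, as with library totals alone. With 1 library left out, 2316 to 2957 genes were called higher and 2178 to 2896 lower, and 5 to 6 members lower. Ratio differences with 1 library left out were −3.97 to −3.71 for P4ha3/P4ha1, −1.15 to −0.73 for P4ha2/P4ha1 and −0.65 to −0.47 for Plod1/Plod2. The smallest exact p there is 0.0571, so only values were compared. No pairing by replicate number was seen: correlations of deviations between same-numbered libraries were −0.0766 to 0.105, and 0 of 4 KO_BLM libraries were best matched by their own number. A weak pairing would be missed by this check. With the replicate number as a block, 2878 genes were called higher and 2824 lower, and the members stayed at 1 higher and 5 lower. The sign-flip test over pairs cannot go below 0.125. P4ha3 rests on 76 to 95 counts in each KO_BLM library. Changes of 1.5-fold were often missed in the simulation, but it changed far fewer genes than were called here. Its rate of missed changes therefore does not carry over to these libraries.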

Other observations

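Other hydroxylases that use 2-oxoglutarate, outside the collagen pathway, were mostly not called. Of 12 such genes 1 rose, none fell and 11 were not called, against 20.7% of all tested genes higher and 20.8% lower. Their median log2 fold change was 0.01, and their summed level was 453 to 493 CPM in KO_BLM and 457 to 496 CPM in WT_BLM. The gene that rose was P4htm, a transmembrane prolyl hydroxylase, at 11.3 ± 1.15 CPM in KO_BLM and 6.73 ± 0.748 CPM in WT_BLM (SD, n = 4 each, edgeR adjusted p = 0.0023). With limma on log2 FPKM values 3 of the 12 genes were higher.

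Of 19 hypoxia-inducible factor target genes 13 fell, 1 rose and 5 were not called, with a median log2 fold change of −0.59, against 20.8% of all tested genes lower and 20.7% higher. Bhlhe40, a transcriptional repressor, fell 3.55-fold, the glucose transporter Slc2a1 2.17-fold, the glycolytic enzyme Eno1 2.52-fold and Ddit4 3.43-fold. Vegfa, the vascular growth factor, rose 1.62-fold, to 989 ± 96.4 CPM in KO_BLM, against 612 ± 65.8 CPM in WT_BLM.

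Of the 6 chains of type IV collagen, the network collagen of basement membranes, 2 fell, 1 rose and 3 were not called, against 41.5% of all tested genes called in either direction. With limma-voom 4 chains were lower. Col4a1 and Col4a2 fell 2.36- and 2.33-fold, and Col4a6 rose 1.53-fold, to 24.3 ± 1.42 CPM in KO_BLM, against 15.9 ± 2.54 CPM in WT_BLM.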
